A study of Mus musculus with 34 samples.

Results

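Complement is a set of plasma proteins and cell receptors that marks microbes and dying cells and is largely made in the liver. Hepatocytes secrete most of the soluble components, and Kupffer cells, the resident macrophages of the liver, make C1q and other recognition proteins and carry receptors for the activated fragments. The classical pathway starts from C1q, the lectin pathway from mannose-binding lectins and ficolins, and the alternative pathway from C3 itself, and all of them converge on C3 and on the terminal pore. The genes described here are 33 complement and lectin pathway genes, chosen by name and present in both count tables, of 24951 genes in the hepatocyte table and 26233 in the macrophage table. By textbook source, 21 are hepatocyte products, 5 are macrophage products, 4 are leukocyte receptors and 3 are made by several cell types. By role, 5 belong to classical recognition and its proteases, 5 to the lectin pathway, 2 are pentraxins, 3 are central components, 3 belong to the alternative pathway, 6 to the terminal pathway, 3 are soluble inhibitors, 2 are membrane inhibitors and 4 are receptors.

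The RNA came from hepatocytes and liver macrophages of mice on a mixed B6;129P background built for the deletion of the coactivators YAP (Yap1) and TAZ (Wwtr1) from bile duct epithelium. Floxed alleles of Yap1 and Wwtr1 were common to all mice, and all received tamoxifen at 1.6 mg/kg for 5 days at an age of 7 to 8 weeks, with a washout of 3 weeks. Knockout mice also carried an inducible Cre recombinase driven by the promoter of osteopontin, and Cre-negative siblings were the controls. Mice with injury received carbon tetrachloride (CCl4), a toxicant that damages hepatocytes around the central veins, at 1 ml/kg and were examined 48 h later. There were hepatocyte libraries of 6 uninjured controls, 5 uninjured knockout mice, 3 controls given CCl4 and 4 knockout mice given CCl4. Macrophages, sorted on F4/80 and CD45, came from 4 mice in each of the same 4 conditions. Libraries are named by the number in their titles, read here as a mouse number; the labels do not state that the same number in both cell types is the same animal.

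Totals ran from 931496 to 7535053 counts in hepatocyte libraries and from 596380 to 5128587 in macrophage libraries, so 3 counts corresponded to between 0.398 and 5.03 counts per 1e6 counts (CPM). The numbered sequencing files fell into 2 series, and the first held 5 hepatocyte and 2 macrophage libraries, all from control mice. Over both series genotype is therefore mixed with the file series, and what the second series alone gave is stated for some of the results that it changed. The labels of 2 libraries after CCl4 conflict (hepatocytes of mouse 15, macrophages of mouse 11): the genotype label says control, which was followed, and another label says knockout. Levels are CPM scaled by library (TMM factors), and a gene is called where the adjusted p of edgeR's quasi-likelihood test was under 0.05 over all genes. Of the 33 genes, 30 passed the filter on low counts in hepatocytes and 32 in macrophages. Cfd, the factor D protease of the alternative pathway, had 5 counts over all hepatocyte libraries and 6 over all macrophage libraries and was not tested. The anaphylatoxin receptor C5ar1 (67 counts) and the integrin chain Itgam (91 counts) were not tested in hepatocytes.

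**Figure D1:**
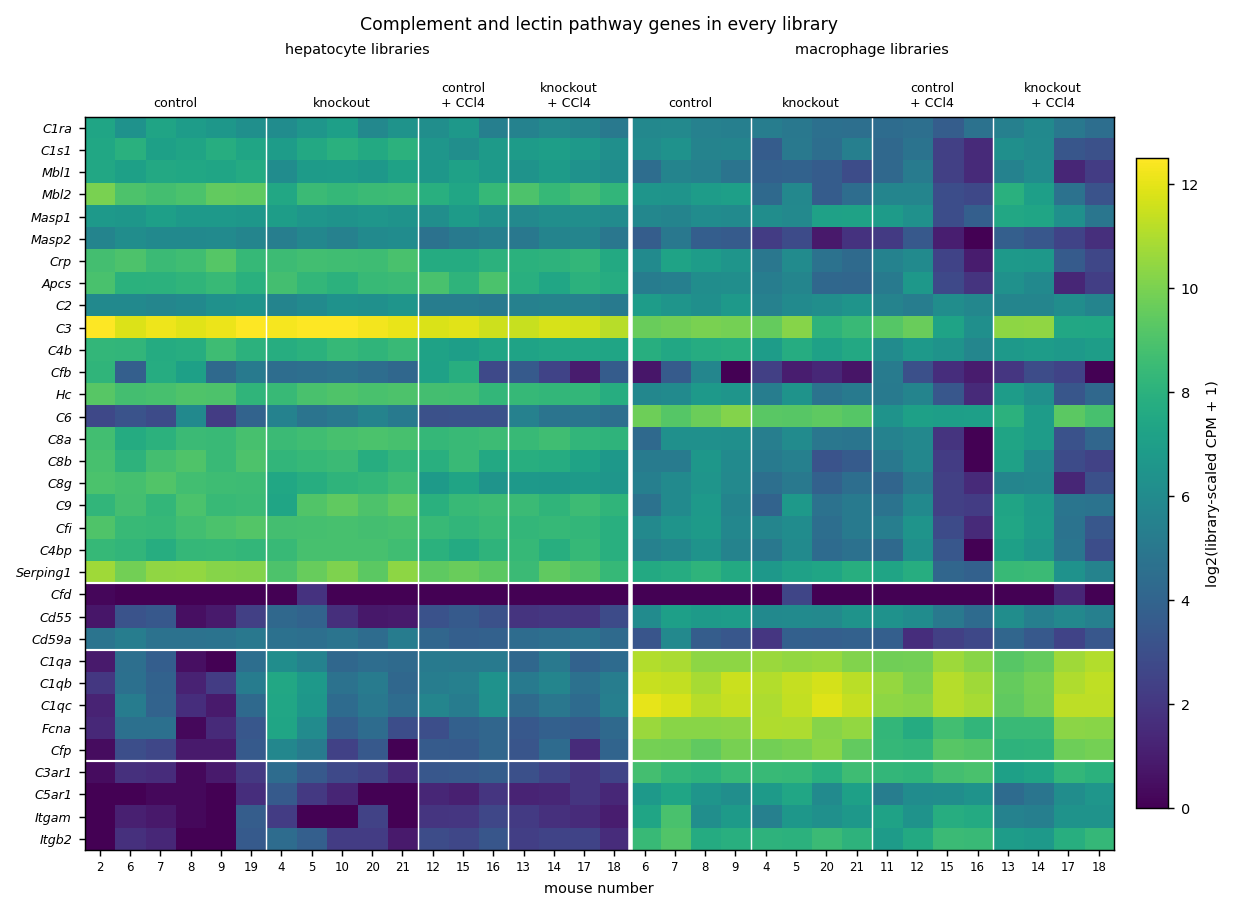
Level of each of the 33 genes (rows) in each library (columns, by mouse number) as log2(library-scaled CPM + 1). White lines separate cell types, conditions and the known sources of the genes; from top to bottom the sources are 21 hepatocyte products, 3 genes of several cell types, 5 macrophage products and 4 leukocyte receptors. C6 sits among the hepatocyte products but is brightest in macrophages, and Cfb is bright in hepatocytes of mice 2, 7, 8, 12 and 15.

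The 2 cell types divided the pathway between them in uninjured control livers. Of the 32 genes tested, 31 were called between macrophages and hepatocytes, 11 higher in macrophages and 20 higher in hepatocytes, where 62.8% of all genes were called. All 5 macrophage products were higher in macrophages. The 3 chains of C1q, whose genes lie side by side on chromosome 4 (GRCm38, from C1qb at 136880129 to the end of C1qa at 136898803), differed by 7.01 ± 0.68 (C1qa), 7.03 ± 0.67 (C1qb) and 7.50 ± 0.72 (C1qc) on the log2 scale (± standard error). The adjusted p was 4.21e-10 for C1qa, 2.95e-10 for C1qb and 3.73e-10 for C1qc by edgeR. Ficolin A (Fcna), a lectin pathway recognition protein, was higher by 6.47, and properdin (Cfp), which stabilises the alternative convertase, by 7.38. The receptors C3ar1 and C5ar1 and the chains Itgam and Itgb2 of complement receptor 3 were higher by 6.63 to 7.90. Cd55, a membrane inhibitor that breaks up convertases, was higher in macrophages by 4.11.

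C6, a component of the membrane attack pore and by textbook a hepatocyte product, ran the other way from the rest of the terminal pathway. In uninjured control macrophages C6 (GRCm38, chromosome 15, 4727175 to 4814967) stood at 864, 593, 830 and 1165 CPM in mice 6, 7, 8 and 9. In control hepatocytes it stood at 3.61 to 14.9 CPM in 5 mice and at 60.3 CPM in mouse 8. The cell types did not overlap, and the difference was 4.96 ± 0.50 on the log2 scale in favour of macrophages (adjusted p = 1.15e-09, edgeR). The other 5 terminal genes (Hc, which encodes C5, C8a, C8b, C8g and C9) were all called higher in hepatocytes, with log2 differences of -3.15 to -3.51. C2, the catalytic part of the classical C3 convertase, was the gene tested that was not called. It stood at 74.7 to 120 CPM in macrophages and 52.9 to 87.0 CPM in hepatocytes of uninjured controls, and the ranges overlapped (log2 difference -0.13 ± 0.19, adjusted p = 0.588 by edgeR). The sign of that difference depends on the scaling: the levels printed are scaled within a cell type, while the fit scaled both cell types together, where C2 had means of 76.8 CPM in macrophages and 83.9 CPM in hepatocytes.

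Hepatocyte transcripts were present in the macrophage libraries, and the level they reached there gives a scale for the remaining hepatocyte products. In uninjured controls 6 hepatocyte markers (Alb, Apoa1, Ttr, Serpina1a, Fgb and Hp) had a mean CPM in macrophages that was 15.1% to 20.99% of that in hepatocytes. The median of the 21 hepatocyte products was 19.3%, with 9 inside the range of the markers, 9 above it and 3 below it. In the other conditions the markers stood at 6.87% to 10.2% (control after CCl4), 6.77% to 10.4% (knockout) and 15.1% to 24.1% (knockout after CCl4). C1ra, C1s1, Masp1, C2, C4b and C6 lay above the range of the markers in all 4 conditions. In uninjured controls C6 in macrophages was at 5729% of its hepatocyte level, C2 at 150%, C4b at 78.3%, Masp1 at 56.9%, C1ra at 45.9% and C1s1 at 33.99%. These shares use CPM of the library total, and with both cell types scaled together they were lower for these genes and the markers alike, at 91.5% for C2, 47.6% for C4b and 9.07% to 13.03% for the markers. C1ra and C1s1 encode the proteases of C1, Masp1 a protease of the lectin pathway, and C4b the component C4. On the other strand Masp1 overlaps Rtp4, Gm49514 and Gm45338, C1s1 overlaps Gm16567 and C2 overlaps Zbtb12. The strand setting of the counting is not given, so these shares may include reads of those genes. The part of further cell types in the macrophage libraries was not tested. For C3, the component on which all pathways converge, the share was inside the range of the markers in uninjured controls (19.3%) and in knockout mice after CCl4 (23.7%), and above it in controls after CCl4 (11.2%) and in uninjured knockout mice (11.9%).

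**Figure D2:**
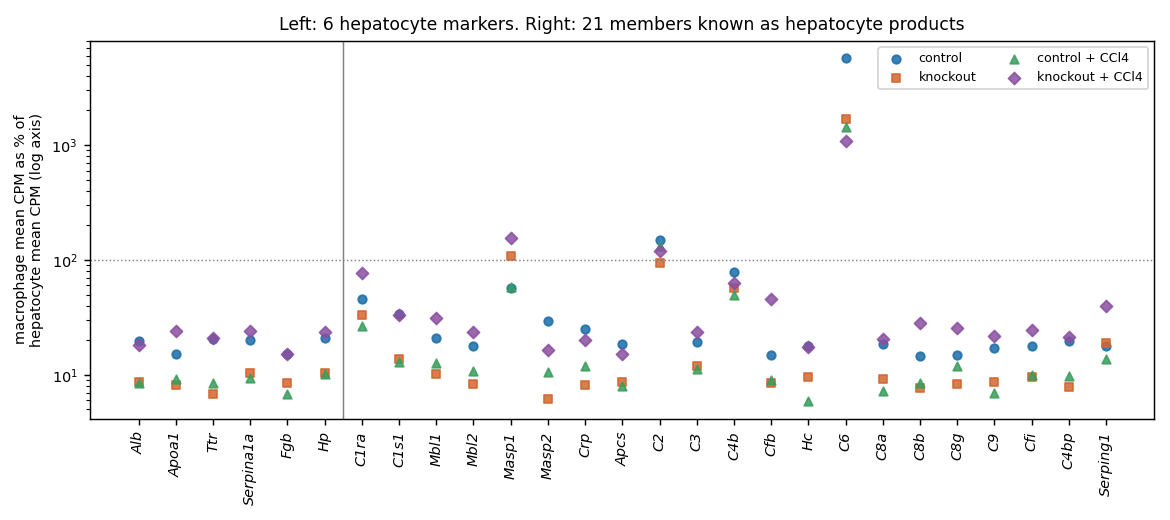
Mean CPM in macrophages as a percentage of mean CPM in hepatocytes (log axis, CPM of the library total), by condition, for 6 hepatocyte markers (left of the line) and 21 hepatocyte products of the complement system (right). In controls the markers lie between 15.1% and 20.99%, most complement genes lie near them, and C2, C4b and C6 lie at 150%, 78.3% and 5729%.

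After CCl4 a broad set of hepatocyte-made complement genes was lower in control hepatocytes. Of the 30 genes tested 13 were called, 2 higher and 11 lower, where 27.4% of all genes were called. Among the 21 hepatocyte products 10 were called lower and 0 higher, with a median log2 change of -0.71, against -0.0079 over all genes. C8g, the lipocalin subunit of C8, fell most. It stood at 373 to 551 CPM in the 6 uninjured controls (median 428) and at 111, 156 and 89.0 CPM in mice 12, 15 and 16 after CCl4, with no overlap. The change was -1.90 ± 0.24 on the log2 scale, a 3.74-fold fall (adjusted p = 5.22e-06, edgeR), and the call held under all 17 alternatives run. C8g lies on chromosome 2 (GRCm38, 25498651 to 25501719) and overlaps Fbxw5 on the other strand, and the strand setting of the counting is not given, so reads of the pair may not be separated.

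Of the 4 lectin pathway genes made by hepatocytes, 3 were called lower in the same comparison (Mbl2, Mbl1 and Masp2). Mannose-binding lectin C (Mbl2), a circulating sugar-binding protein, stood at 439 to 1019 CPM in uninjured controls and at 239, 170 and 326 CPM after CCl4, without overlap, a fall by 1.40 on the log2 scale (adjusted p = 0.00128, edgeR). Mannose-binding lectin A (Mbl1) fell by 0.58 on the log2 scale and Masp2, the protease that cleaves C4 and C2 in this pathway, by 0.80. The Mbl1 groups overlapped (136 to 196 CPM against 97.6 to 140 CPM) and its call was lost under 14 of 17 alternatives. Masp2 overlaps Tardbp on the other strand. Masp1 was not called, at 97.4 to 130 CPM against 72.5 to 114 CPM with overlap (log2 change -0.29 ± 0.17, adjusted p = 0.237 by edgeR).

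Further down the cascade, the components C2 and C4b fell by 0.86 and 0.96 on the log2 scale. C4b stood at 208 to 393 CPM in uninjured controls and at 144, 127 and 163 CPM after CCl4, and C2 at 52.9 to 87.0 CPM and at 37.8, 38.7 and 33.3 CPM, neither with overlap. C4b and C1s1 have close copies in the mouse genome (C4a and C1s2), and reads may be divided between the copies. C1s1 fell by 0.99 and the pentraxin Crp, a plasma protein that binds C1q, by 0.96 on the log2 scale. The C1 inhibitor Serping1 fell by 0.86, C8b by 0.73 and the pore inhibitor Cd59a by 0.99. C3 itself was not called: it stood at 3611 to 6657 CPM in uninjured controls and at 3524, 3873 and 2972 CPM after CCl4 (log2 change -0.51 ± 0.22, adjusted p = 0.0875 by edgeR). C8a had a log2 change of 0.01. The pentraxin Apcs ran the other way from most hepatocyte products, with a log2 change of 0.42, and neither was called.

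Of the 3 control livers with CCl4, 2 belonged to the first file series. With the file series as a term 17 members were called, and in the second series alone, which leaves 1 hepatocyte library of a control with CCl4 (mouse 16, assumed to vary like the other groups), 1 was called, C8g (log2 change -2.14, adjusted p = 0.0075 by edgeR). There the changes of C4b, Crp and Mbl2 were -0.93, -0.83 and -0.92, with 1 library in the CCl4 group. Without mouse 12, 8 members were called. The shares of all genes called in these alternative fits are not given here. Among the 6 hepatocyte markers 1 was called lower in the same comparison and their median log2 change was -0.37. In bulk libraries fewer cells of a type and less RNA per cell cannot be told apart.

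Hepatocyte-made complement genes were also lower after CCl4 in knockout mice. Of 30 genes 13 were called, all lower and all hepatocyte products, where 13.9% of all genes were called, and the median over the 21 hepatocyte products was -0.69, against -0.018 over all genes. C8g was again the gene with the lowest adjusted p. It stood at 176, 222, 282, 312 and 393 CPM in knockout mice 4, 5, 10, 20 and 21 and at 106, 99.9, 111 and 93.5 CPM after CCl4 in mice 13, 14, 17 and 18, a 2.70-fold fall without overlap (log2 change -1.44 ± 0.22, adjusted p = 0.000179, edgeR). C3 stood at 4335 to 6226 CPM without and 2322 to 3419 CPM with CCl4 and fell by 0.85 on the log2 scale (adjusted p = 0.00795, edgeR). C4b fell by 0.84 and C2 by 0.77. The calls of C8g, C3 and C4b held under all 17 alternatives run for this comparison. Hc fell by 0.69, the C3b-cleaving protease Cfi by 0.61, its cofactor C4bp by 0.61, C1ra by 0.91 and Masp1 by 0.55 on the log2 scale. Of the 6 hepatocyte markers 1 was called lower, with a median log2 change of -0.43, and their part in these changes was not tested.

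Side by side, 7 genes were called lower in both genotypes after CCl4 (C1s1, Crp, C2, C4b, C8b, C8g and Serping1). A further 6 were called in control mice only and 6 in knockout mice only, but a call in 1 genotype does not show a difference between genotypes. The interaction of genotype and CCl4, which tests that difference, was called for 1 of the 30 genes, C3ar1, where 0.217% of all genes were called. Mbl2 came next among the hepatocyte products and was not called: it changed by -1.40 in controls and by 0.30 in knockout mice, a difference of 1.70 ± 0.39 (adjusted p = 0.058, edgeR). Without the library of mouse 18, 3 members (C3, C4b and C8g) were called in knockout mice after CCl4 instead of 13. Without mouse 10 it was 7, and without mouse 21 it was 8. With the conflicting library moved to the knockout group it was 8.

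**Figure D3:**
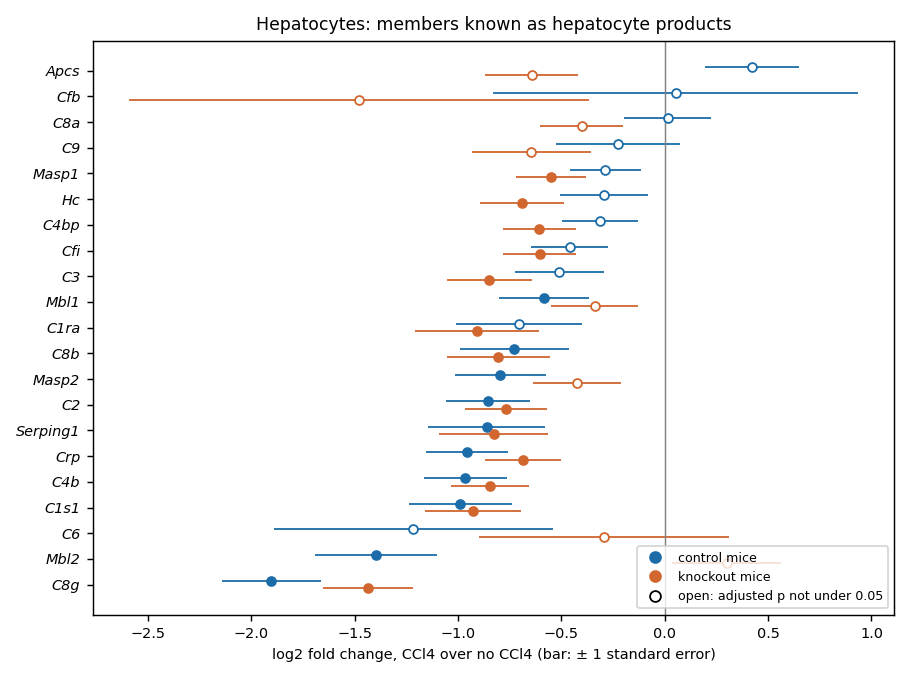
Log2 fold change after CCl4 in hepatocytes of control (blue) and knockout (orange) mice for the 21 hepatocyte products, with bars of 1 standard error; filled points have an adjusted p under 0.05. In controls 18 and in knockout mice 20 of the 21 points lie left of 0, C8g is the lowest of the filled points in both genotypes (-1.90 and -1.44; the open point of Cfb lies at -1.48 in knockout mice), and Mbl2 lies at -1.40 in controls and 0.30 in knockout mice.

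The promoters of 2 of these genes are shown because C8g had the largest fall among the genes called in each genotype and C3 is the hub of the cascade. Promoters were available for 25 of the 33 genes (RefSeq, GRCm38.p6, 250 bases before and 50 after the start), and the 250 bases before the start are printed 5′ to 3′ on the strand of the gene, at chr2:25501720-25501969 (minus strand) for C8g and chr17:57228137-57228386 (minus strand) for C3, with motif matches in capitals.
C8g: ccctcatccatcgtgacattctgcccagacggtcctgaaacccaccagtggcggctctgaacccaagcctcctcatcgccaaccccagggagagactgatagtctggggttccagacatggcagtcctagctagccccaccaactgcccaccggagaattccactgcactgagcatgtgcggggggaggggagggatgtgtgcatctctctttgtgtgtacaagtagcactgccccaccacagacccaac
C3: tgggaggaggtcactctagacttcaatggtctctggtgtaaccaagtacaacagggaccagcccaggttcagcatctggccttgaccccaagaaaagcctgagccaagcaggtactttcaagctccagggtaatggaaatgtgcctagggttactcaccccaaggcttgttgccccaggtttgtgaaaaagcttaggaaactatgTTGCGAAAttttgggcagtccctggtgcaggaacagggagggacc
The capitals in C3 mark a match to the C/EBP motif TTGCNNAA, searched on both strands, which 4 of the 25 promoters held (C1ra, C1s1, C3 and C9) against 10.8% of all 27025 promoters of the same length. The STAT motif TTCNNNGAA was also found in 4 of the 25 (C1ra, Masp2, Apcs and C8a) against 8.47%, and the HNF4 motif AAAGTCCA in 0 against 1.25%. An interferon response motif was found in 1 (Cd59a) against 3.49%, and a palindromic HNF1 motif in 0 against 0.0074%.

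The knockout by itself went with few differences in the hepatocyte products. Of 30 genes tested in hepatocytes without CCl4, 7 were called, 4 higher and 3 lower, where 7.87% of all genes were called. The lower ones were Mbl2, Mbl1 and C8g. Mbl2 stood at 178, 368, 320, 366 and 374 CPM in knockout mice 4, 5, 10, 20 and 21, all below the 439 to 1019 CPM of the 6 controls (log2 difference -1.01 ± 0.24, adjusted p = 0.0164, edgeR). Mbl1 fell by 0.64 and C8g by 0.69 on the log2 scale, both with overlap between the groups. C4bp, which binds C4b and helps to inactivate it, was higher, at 344 to 470 CPM against 218 to 335 CPM in controls, without overlap (log2 difference 0.51 ± 0.16, adjusted p = 0.0496, edgeR). With the file series as a term 0 of the 7 calls held, and in the second series alone 1 member was called, C6, which was not among the 7. The Mbl2 difference lay between -0.82 and -1.11 under all 19 alternatives, and within the second series the knockout values were below the 515, 724 and 674 CPM of control mice 6, 9 and 19. Leaving out single libraries gave between 1 and 10 calls: 1 without control mouse 2, 2 without control mouse 7 or knockout mouse 4, 5 or 20, and 3 without control mouse 8. Leaving out the library of mouse 15, or counting it as a knockout, gave 4 calls.

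The 3 others that were higher, C1qb, C1qc and C3ar1, are macrophage genes, and in hepatocyte libraries they moved with macrophage markers. C1qc stood at 167, 96.1, 19.5, 31.1 and 20.6 CPM in knockout mice 4, 5, 10, 20 and 21 and at 0.902 to 37.6 CPM in controls, so that the groups overlapped (log2 difference 2.76 ± 0.80, adjusted p = 0.0482, edgeR). The summed level of 8 Kupffer cell and macrophage markers ran from 84.0 to 941 CPM in hepatocyte libraries of knockout mice and from 10.4 to 139 CPM in those of controls, and 6 of the 8 were called higher. After CCl4 the sum was 230 to 259 CPM in hepatocyte libraries of controls, where 4 of the 8 markers, C1qc and C3ar1 were called higher, and 91.0 to 190 CPM in those of knockout mice. The C3a receptor C3ar1 stood at 0.212 to 3.18 CPM (1 to 10 counts) in uninjured control hepatocytes and at 9.34, 10.4 and 12.1 CPM (49, 64 and 34 counts) after CCl4. In knockout mice it stood at 1.71 to 20.04 CPM without and 2.81 to 7.35 CPM with CCl4. The interaction was -4.07 ± 0.76 on the log2 scale (adjusted p = 0.0358, edgeR), a call that 15 of 26 alternatives did not keep. In the same contrast the median of the 8 macrophage markers was -3.11, and their part in the C3ar1 value was not tested.

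After CCl4, 0 of the 30 genes were called between knockout and control hepatocytes by edgeR, where 0.176% of all genes were called. An unadjusted p under 0.05 (edgeR) was found for 7 of the 30 and for 1241 of all 9679 genes. DESeq2 called 2 members (Apcs and Cfb, both lower), and its share over all genes is not given here. For Cfb the controls of mice 12 and 15 belonged to the first file series, at 140 and 231 CPM. Control mouse 16, of the second series, stood at 5.67 CPM, inside the 0.938 to 11.6 CPM of the knockout mice. C6 differed most in fold among genes without overlap. It stood at 44.8, 27.1, 28.1 and 22.5 CPM in knockout mice 13, 14, 17 and 18 and at 7.63, 7.77 and 7.80 CPM in control mice 12, 15 and 16 (log2 difference 1.97 ± 0.73, adjusted p = 0.296, edgeR). Without CCl4 the knockout hepatocytes stood at 27.4 to 47.4 CPM, so all 9 knockout libraries were above 8 of the 9 control libraries. The exception was control mouse 8, with 60.3 CPM, and with it the difference without CCl4 was 1.05 ± 0.54 and not called (adjusted p = 0.238, edgeR). In the second series alone, which does not hold mouse 8, it was 2.07 and called (adjusted p = 0.0163, edgeR). That library had low macrophage genes (C1qa 0.425 CPM, Fcna 0.212 CPM), while the macrophage library of the same number, at 830 CPM of C6, lay inside the range of the other controls. Summed macrophage markers in hepatocyte libraries without CCl4 were 84.0 to 941 CPM in knockout mice and 10.4 to 139 CPM in controls. With CCl4 they were 91.0 to 190 CPM in knockout mice and 230 to 259 CPM in controls. The part of macrophage RNA in these C6 levels was not tested.

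Factor B (Cfb), the protease of the alternative C3 convertase, followed the file series. In hepatocytes it stood at 136 to 287 CPM in the 5 libraries of the first series and at 0.938 to 35.0 CPM in the 13 of the second. In macrophages the values were 35.3 and 52.2 CPM in the first series and 0 to 11.2 CPM in the 14 libraries of the second. It was the member whose series did not overlap in both cell types over all libraries, with means 12.66 and 14.02 times higher in the first. The libraries numbered 7, 12 and 15 belonged to the first series for hepatocytes, at 215, 140 and 231 CPM, and to the second for macrophages, at 11.2, 7.26 and 2.096 CPM. Of 8909 genes tested in both cell types, Cfb was the 1 gene at least 10 times higher in the first series without overlap in both, and 24 genes were so in the second series. The same comparison was made within uninjured control hepatocytes, where 5 of 30 members did not overlap between the series (C1ra, C2, Cfb, Masp1 and Serping1), against 21.1% of all genes tested. Within the second series, without CCl4, Cfb stood at 12.9, 18.04 and 35.01 CPM in hepatocytes of control mice 6, 9 and 19. Those of knockout mice stood at 17.1 to 25.3 CPM, and the genotypes overlapped. With CCl4 hepatocytes of knockout mice stood at 0.938 to 11.6 CPM, below every such library without it. Those of control mouse 16 stood at 5.67 CPM. The fall in knockout mice was not called. Over both series the log2 difference of Cfb for the knockout without CCl4 was -2.49 ± 0.87 (adjusted p = 0.0899, edgeR). Cfb lies beside C2 on chromosome 17 (GRCm38, 34856374 to 34862518), and the gene model Gm20547 covers part of both on the same strand.

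**Figure D4:**
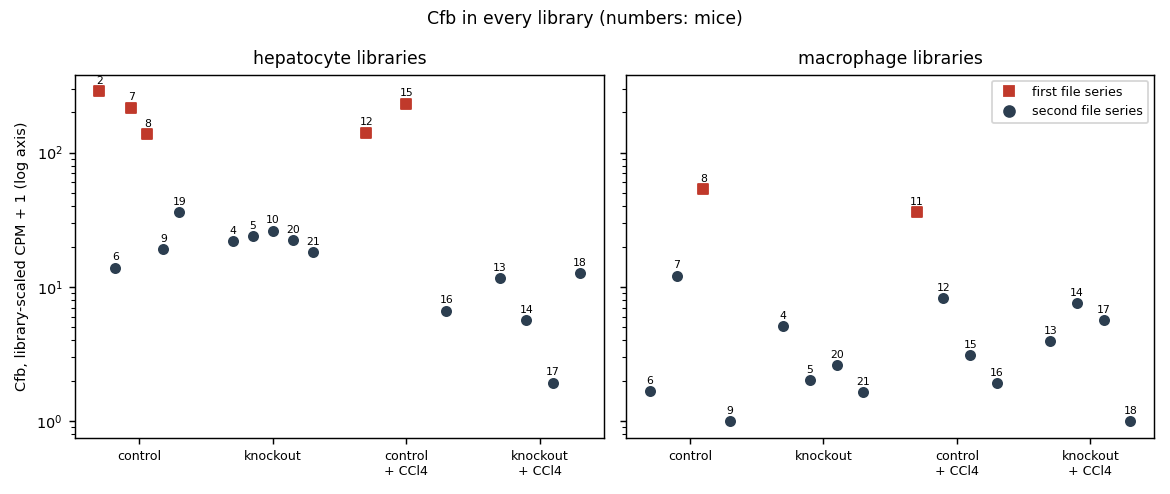
Cfb in every library as library-scaled CPM + 1 (log axis), by condition and cell type; squares are libraries of the first file series, circles those of the second, and numbers are mice. All squares (136 to 287 CPM in hepatocytes, 35.3 and 52.2 CPM in macrophages) lie above all circles of the same cell type.

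In macrophages of control mice C6 and ficolin A fell after CCl4, while the C1q chains were not called. Of 32 genes tested 8 were called, all lower, where 13.2% of all genes were called. C6 stood at 864, 593, 830 and 1165 CPM without CCl4 and at 84.6, 138, 129 and 133 CPM in mice 11, 12, 15 and 16 with it. The groups did not overlap, and the change was -2.84 ± 0.37 on the log2 scale, a 7.15-fold fall (adjusted p = 0.000108, edgeR). Fcna stood at 1580, 1253, 1255 and 1266 CPM without CCl4 and at 312, 205, 418 and 299 CPM with it, a 4.33-fold fall without overlap (log2 change -2.11 ± 0.38, adjusted p = 0.0016, edgeR). Both calls held under all 16 alternatives run. Fcna overlaps Fcnaos on the other strand, and reads of that pair may not be separated. C1qa stood at 1343 to 2136 CPM without and 876 to 1605 CPM with CCl4 and overlapped (log2 change -0.54 ± 0.33, adjusted p = 0.299, edgeR). C1qc did not overlap, at 2259 to 4163 CPM against 1233 to 2172 CPM, and had a log2 change of -0.93 ± 0.36 (adjusted p = 0.0936, edgeR). Properdin had one of -1.002 ± 0.37 (adjusted p = 0.0815, edgeR).

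Markers of resident Kupffer cells were also lower in these libraries. Clec4f, a lectin of Kupffer cells, stood at 2042 to 3144 CPM without and 698 to 1262 CPM with CCl4, 3 of 8 Kupffer cell and macrophage markers were called lower, and 4 of 5 monocyte markers were called higher. The summed level of 5 endothelial markers ran from 941 to 1438 CPM without and from 171 to 1025 CPM with CCl4 (median log2 change -1.32), and 6 stellate cell markers had a median log2 change of 1.22; 0 of either list were called. The part of any of these cells in the changes of C6, Fcna and Cd55 was not tested. Set against Clec4f in the same library, C6 stood at 28.6 to 40.6 CPM per 100 CPM of Clec4f without CCl4 and at 10.3 to 18.7 with it. The exact permutation test of the log2 ratio (2-sided, n = 4 against 4, 70 arrangements) gave p = 0.0286, the smallest it can give, or 0.0429 adjusted over 3 genes examined. For Fcna the ratio was 40.3 to 70.2 without and 27.8 to 44.7 with CCl4 (exact permutation p = 0.0571, adjusted 0.0571). For C1qa it ran the other way, from 42.7 to 94.9 up to 124 to 132 (exact permutation p = 0.0286, adjusted 0.0429). The 3 genes and the reference were chosen after these same values were seen, so the p-values of the ratios cannot count as tests of a difference. The adjustment does not cover the other genes that could have been chosen.

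Apart from Cd55, the other calls in this comparison concerned genes that hepatocytes also make, and the hepatocyte marker Alb moved in the same libraries. Alb stood at 8920 to 13866 CPM without CCl4 and at 3951, 9284, 560 and 228 CPM in mice 11, 12, 15 and 16 with it, and 0 of 6 hepatocyte markers were called (median log2 change -1.33). C1s1, at 46.5 to 82.1 CPM without and 17.97, 25.9, 4.19 and 1.82 CPM with CCl4, and Masp2, at 11.2 to 31.1 and 0 to 10.4 CPM, were lowest in mice 15 and 16, as Alb was. C4b stood at 182 to 231 CPM without and at 64.7, 108, 85.4 and 51.9 CPM with CCl4, and fell by 1.46 on the log2 scale (adjusted p = 0.000477, edgeR). Per 100 CPM of Alb, C4b was at 1.31 to 2.38 CPM in macrophages without CCl4, at 1.64, 1.16, 15.3 and 22.8 CPM in those of mice 11, 12, 15 and 16 with it, and at 0.372 to 0.602 CPM in uninjured control hepatocytes. C2, at 74.7 to 120 CPM without and 47.7, 38.4, 68.7 and 54.6 CPM with CCl4, fell by 0.87 and C1ra by 1.33 on the log2 scale. Cd55, which is made by several cell types and was higher in macrophages than in hepatocytes, fell by 1.07 on the log2 scale. For C1s1, Masp2, C1ra, C2 and C4b the part of hepatocyte RNA in the change was not tested.

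The count of 8 depended on single libraries: without control mouse 7 or 9, or mouse 11 or 15 after CCl4, 5 were called, and without mouse 16 it was 4. C1ra and C4b, like C6 and Fcna, were called in each of those fits. In the second file series alone C1s1, C2 and Masp2 lost their calls. Over the 16 alternatives run, the call was lost under 13 for C1s1, 9 for C2, 8 for Masp2 and 7 for Cd55.

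**Figure D5:**
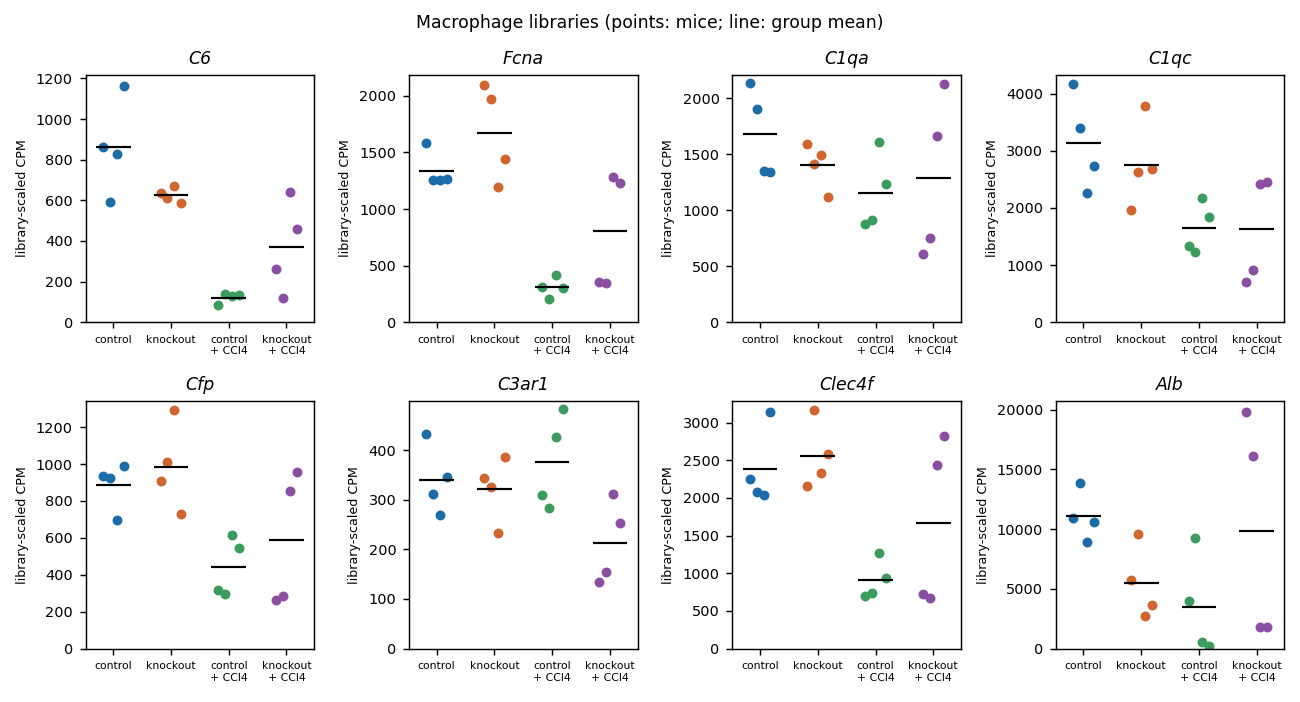
Library-scaled CPM of 6 complement genes, the Kupffer cell gene Clec4f and the hepatocyte gene Alb in macrophage libraries (points are mice, lines are group means, axes start at 0). After CCl4 the control values of C6 lie between 84.6 and 138 CPM and those of Fcna between 205 and 418 CPM, below every library without CCl4, and the 4 knockout libraries with CCl4 split into mice 13 and 14 and mice 17 and 18.

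The promoters of 3 macrophage genes are shown because C6 and Fcna fell after CCl4 and C1qc was not called. They are taken from the same source, at chr15:4726960-4727209 (plus strand) for C6, chr2:25627975-25628224 (minus strand) for Fcna and chr4:136892915-136893164 (minus strand) for C1qc, again the 250 bases before the start.
C6: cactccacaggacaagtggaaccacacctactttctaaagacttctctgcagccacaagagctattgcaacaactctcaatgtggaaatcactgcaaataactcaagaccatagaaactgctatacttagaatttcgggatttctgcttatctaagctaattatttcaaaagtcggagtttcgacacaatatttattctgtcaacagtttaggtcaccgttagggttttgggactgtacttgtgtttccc
Fcna: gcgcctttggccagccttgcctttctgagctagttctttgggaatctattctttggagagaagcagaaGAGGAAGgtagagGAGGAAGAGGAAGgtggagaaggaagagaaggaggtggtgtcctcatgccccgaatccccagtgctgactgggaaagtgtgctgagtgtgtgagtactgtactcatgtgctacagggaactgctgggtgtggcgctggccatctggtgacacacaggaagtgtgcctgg
C1qc: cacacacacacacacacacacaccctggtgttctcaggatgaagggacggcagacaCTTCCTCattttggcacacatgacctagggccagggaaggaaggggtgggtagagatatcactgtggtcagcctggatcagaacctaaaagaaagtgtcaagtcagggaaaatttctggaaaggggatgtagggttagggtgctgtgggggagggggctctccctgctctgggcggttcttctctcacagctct
The capitals mark matches to GAGGAAG on either strand, a motif bound by the myeloid factor PU.1, with 3 matches in Fcna, of which 2 overlap by 1 base. Of the 25 promoters 3 held it (Fcna, C1qc and Itgam) against 13.5% of all promoters, and C6 held none of the 6 motifs searched.

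In macrophages of knockout mice 0 of 32 members were called after CCl4 by edgeR and 0 by DESeq2, where edgeR called 0.878% of all genes. An unadjusted p under 0.05 (edgeR) was found for 8 members and for 1262 of all 10815 genes. The 4 libraries of this group split. C6 stood at 643 and 458 CPM in mice 17 and 18, near the 587 to 671 CPM of knockout mice without CCl4, and at 261 and 121 CPM in mice 13 and 14. Fcna stood at 1288 and 1234 CPM in mice 17 and 18 and at 355 and 350 CPM in mice 13 and 14, and properdin at 856 and 957 CPM against 265 and 283 CPM. C1qa (1664 and 2124 CPM against 609 and 753 CPM) and C1qb and C1qc split the same way. So did Clec4f, at 2443 and 2819 CPM in mice 17 and 18 and 719 and 671 CPM in mice 13 and 14, while Alb was at 1831 and 1819 CPM against 19759 and 16096 CPM. Labels give no difference between these mice. In their hepatocyte libraries C8g alone is compared here, and it did not show a like split (111 and 93.5 CPM against 106 and 99.9 CPM). Other members spread more widely among these 4 libraries, as Serping1 did at 327 to 708 CPM.

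Between knockout and control macrophages no member was called. Without CCl4 the count was 0 of 32 by edgeR and 0 by DESeq2, where edgeR called 0.166% of all genes. An unadjusted p under 0.05 (edgeR) was found for 6 members and for 1295 of all 10815 genes. After CCl4 the count of calls was 0 by edgeR and 1 by DESeq2 (C6), where edgeR called 0.0647% of all genes. An unadjusted p under 0.05 (edgeR) was found for 7 members and for 871 of all genes. C6 had the largest difference relative to its error after CCl4, 1.61 ± 0.36 on the log2 scale (adjusted p = 0.131, edgeR), with 121 to 643 CPM in knockout and 84.6 to 138 CPM in control mice. DESeq2 gave it 1.63 (adjusted p = 0.0066), and without the library of mouse 14 edgeR gave 1.91 (adjusted p = 0.0151). For the interaction 0 were called by edgeR and 2 by DESeq2 (C6 and C1ra), where edgeR called 0.194% of all genes. An unadjusted p under 0.05 (edgeR) was found for 8 members and for 1327 of all genes. Shares of all genes called by DESeq2 are not given here. The C6 value was 2.08 ± 0.50 (adjusted p = 0.0919, edgeR), and without mouse 14 it was 2.37 and called (adjusted p = 0.0246, edgeR). Without mouse 18 C1ra was called instead. All 21 hepatocyte products had a positive interaction in macrophages (median 2.11), and so had the 6 hepatocyte markers at the median (2.41). The receptors gave no call between genotypes: Itgam stood at 72.1 to 474 CPM in control and 42.4 to 98.8 CPM in knockout macrophages (log2 difference -1.39 ± 0.50, adjusted p = 0.276, edgeR), with mouse 7 the highest.

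A further 30 complement genes that are not among the 33 were read in the same fits, 17 of them tested in hepatocytes and 19 in macrophages. In control hepatocytes after CCl4, 7 of the 17 tested were called, 6 lower and 1 higher, where 27.4% of all genes were called. Among the lower ones Cpn2 fell by 1.18 and Cpb2 by 0.93 on the log2 scale, and both encode parts of enzymes that clip the anaphylatoxins. The higher one was Vsig4, a macrophage complement receptor and 1 of the 8 macrophage markers above, with 2.35. In hepatocytes of knockout mice after CCl4, 4 of 17 were called and all were lower, where 13.9% of all genes were called. Among them Cpb2 fell by 1.05 and the pore inhibitor vitronectin (Vtn) by 0.63 on the log2 scale. In control macrophages after CCl4, 8 of the 19 tested were called, where 13.2% of all genes were called. Itgax, a chain of complement receptor 4, rose by 3.10, the C1q-related receptor Cd93 by 1.79 and the collectin Colec12 by 1.76, while the second C5a receptor C5ar2 fell by 2.43. In uninjured knockout hepatocytes Vsig4 was the 1 gene called of 17 (2.74 higher), where 7.87% of all genes were called. Between knockout and control macrophages 0 of 19 were called without or with CCl4, where 0.166% and 0.0647% of all genes were called.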

How the data were processed

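The 33 genes, their roles and the gene lists were chosen with earlier results of these data known. Hepatocytes were separated on Percoll and macrophages sorted as F4/80 and CD45 positive cells, and RNA was made into 3′ tag libraries (QuantSeq, single 50 bp reads), per the labels' protocols. The submitters' processing notes name Trimmomatic 0.39, HISAT2 2.1.0 and the mouse genome GRCm38. The counting tool, with its annotation and use of strand, is not given in the sources used here. The authors deposited raw counts per gene symbol, 1 column per library (34 libraries, 8 groups, each with its own number within a cell type), and every column was used. One fit of 4 groups per cell type used edgeR 4.0.16 in R 4.3.3 (filterByExpr, TMM factors, robust quasi-likelihood F tests, Benjamini-Hochberg adjustment over all genes at 0.05), and a joined fit of 8 groups on 22586 shared genes compared the cell types. Each standard error is approximate, obtained by dividing the log2 fold change by the root of its F statistic. A count of 3, given above as CPM, was taken as the floor and was not used to filter genes. The standard errors include the spread between libraries as well as counting error. The alternatives run were DESeq2 1.42.0, RLE factors, no filter, the file series as a term, the second series alone (the widest gap in the file numbers runs from 14 to 25), the 2 conflicting labels left out or moved, each library left out in turn, the library number as a replicate block and, chosen after seeing the data, the older quasi-likelihood method and a fit of the same 4 numbers without the block. The labels do not state that each number is a separate animal, so p-values measure the spread between these libraries. All members and every other complement gene called, up to 6 per comparison by lowest p, were to be named; some of the latter are not reported here. Positions are those of GENCODE M21 (GRCm38). On simulated counts the scripts recovered 88% of 4-fold and 33% of 2-fold changes for CCl4 in control hepatocytes (9679 genes), and 40% and 2% for the macrophage interaction (10815 genes). Of the calls, 6.92% were false in the former and 4.55% in the latter. Changes were planted only in genes above a minimum mean count, so these shares do not cover genes with few counts.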

Additional observations from a re-analysis of the deposited data

Results flagged for a closer look

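In 17 of 218 groups of 4 to 6 libraries (7.80%, where chance gives about 1 in 20) the highest or lowest library stood apart from the others. In hepatocytes without CCl4 these were C6 in control mouse 8 (60.3 CPM), C4bp (218 CPM) and Masp1 (130 CPM) in control mouse 7, Itgb2 in control mouse 19 (10.6 CPM), and Masp1 (124 CPM) and Mbl2 (178 CPM) in knockout mouse 4. In hepatocytes of knockout mice after CCl4 they were Cd55 (6.30 CPM) and Hc (223 CPM) in mouse 18. In macrophages without CCl4 they were C8a (18.1 CPM) and Fcna (1580 CPM) in control mouse 6, Cd59a (58.2 CPM) and Masp2 (31.1 CPM) in control mouse 7, Cd55 in knockout mouse 21 (83.8 CPM), Cd59a in knockout mouse 4 (2.88 CPM) and Itgb2 in knockout mouse 20 (363 CPM). In macrophages after CCl4 they were C6 in control mouse 11 (84.6 CPM) and C2 in knockout mouse 17 (69.9 CPM).

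The response of C3ar1 to CCl4 in hepatocyte libraries differed between genotypes by the test of the interaction, -4.07 on the log2 scale, on counts of 1 to 64 per library.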

How the results depend on the processing

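For the cell type comparison the count of members called was 31 of 32 with the library number as a replicate block, 29 in the libraries of the same 4 numbers without the replicate block, and 30 to 31 without single libraries. Same-numbered hepatocyte and macrophage libraries share only a number in the labels: their deviations from the group means correlated by -0.011, 0.31, 0.13 and 0.091 for numbers 7, 8, 6 and 9, and 6 of 8 libraries correlated best with their own number. No member reversed its direction among called values. For CCl4 in control hepatocytes the count of 13 became 1 in the second file series alone and 8 to 14 without single libraries. For the knockout without CCl4 in hepatocytes the 7 became 0 with the file series as a term, 1 in the second series alone, 4 with the conflicting label left out, 4 with it moved, 4 with the older quasi-likelihood method, and 1 to 10 without single libraries. After CCl4 DESeq2 called 2 and single libraries left out gave 0 to 1. For CCl4 in knockout hepatocytes the 13 became 8 without the filter, 8 with the label moved, and 3 to 13 without single libraries. For the hepatocyte interaction the 1 became 2 without the filter, 2 by DESeq2, 0 by the older method, 0 in the second series alone, 0 with the label left out, 0 with it moved, and 0 to 2 without single libraries. For CCl4 in control macrophages the 8 became 22 without the filter, 5 by the older method, 5 with the label left out, 5 with it moved, and 4 to 8 without single libraries. Without the filter the macrophage counts of 0 became 9 (knockout without CCl4), 11 (knockout after CCl4), 3 (CCl4 in knockout mice) and 15 (interaction), while DESeq2 called 1 for the knockout after CCl4 and 2 for the interaction, and single libraries left out gave 0 to 1 for each of these last comparisons and 0 to 0 for the other pair. The share of all genes called in each of these fits is not given here, so the shifts cannot be read as particular to the members. Their cause was not tested.

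Of 264 group levels compared with and without the scaling alternative, 240 moved by less than 1 SD and 24 by more. Groups of 3 to 6 mice and totals from 596380 counts limit what could be called, and C3ar1, C1q and Cd55 in hepatocytes rest on few counts. The libraries of mice 15 (hepatocytes) and 11 (macrophages) have conflicting labels.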
